A study of Mus musculus with 14 samples.

Results

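A gene desert is a stretch of chromosome that holds no protein-coding gene. Regions of histone H3 lysine 27 acetylation (H3K27ac) were taken as desert regions where they lay more than 100 kb from the span of every protein-coding gene on chromosomes 1 to 19 and X, in mouse genome build mm10. This rule used positions and no measured level, and it selected 7298 of 55050 regions (13.3%), each 2000 bp long, in 1145 deserts. Small intestinal organoids from 1 female mouse of genotype Lgr5GFPDTR/+ were profiled by ChIPmentation, an immunoprecipitation of chromatin in which the Tn5 transposase adds the sequencing adapters, and all groups share this line. The RANKL arm held 3 H3K27ac libraries. Its organoids were primed for 3 days with CHIR99021 (3 µM), which activates Wnt signalling, together with valproic acid (1.5 mM), which blocks histone deacetylases. They then had 1 day in ENR medium, a mix with EGF, Noggin and R-spondin 1, and after it RANKL at 100 ng/mL until harvest at day 6. The ENR arm held 3 libraries of organoids that had ENR medium throughout. The arms therefore differ in the whole M cell protocol, including the earlier deacetylase inhibitor, and the part of RANKL alone cannot be told apart. A second antibody, against the transcription factor ONECUT2, was used on 3 RANKL and 3 ENR libraries. Replicates were 3 independent differentiation experiments, so p-values measure the spread between experiments on 1 line.

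H3K27ac is found on nucleosomes at active promoters and enhancers. In deserts the mark mostly falls on distal enhancers, which can act on a promoter far away, and many genes of development and of epithelial identity are known for enhancers spread over a wide gene-free flank. Some of these stretches also hold genes for long non-coding RNAs or microRNAs. RANKL is the cytokine that drives the differentiation of microfold (M) cells, which carry antigen across the gut epithelium.

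Desert regions lay a median of 250.4 kb from the nearest protein-coding gene (quartiles 155.7 and 466.0 kb). Of them, 1651 were more than 500 kb and 436 more than 1 Mb away, and the farthest was 2204 kb away. A desert held a median of 4 regions and at most 45, and 245 deserts held 1 region. The share of regions that were desert regions ran from 6.38% on chromosome 7 to 20.7% on chromosome 12. Spans of non-coding genes overlapped 1383 desert regions (19.0%), and 1192 overlapped a long non-coding RNA. With every annotated gene counted, coding or not, 1582 regions (21.7%) were still more than 100 kb from any gene.

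Annotated start sites of non-coding RNAs lay inside 137 desert regions. Of these, 24 were called higher in RANKL organoids (17.5%) and 23 lower (16.8%), with a median log2 fold of 0.11. Called means an adjusted p under 0.05 in edgeR's quasi-likelihood test, adjusted by Benjamini-Hochberg over all 54765 regions tested, of which 14.8% were called higher and 21.0% lower. The RefSeq sequences of 4 promoters (GRCm38.p6, the assembly of mm10) are shown because they carry the change with the smallest adjusted p among them, 2 higher and 2 lower. They were chosen after their values were seen. Each runs from 250 bases before the start site to 50 after it on the plus strand, 5′ to 3′.
Gm33782, chr10:96308831-96309130: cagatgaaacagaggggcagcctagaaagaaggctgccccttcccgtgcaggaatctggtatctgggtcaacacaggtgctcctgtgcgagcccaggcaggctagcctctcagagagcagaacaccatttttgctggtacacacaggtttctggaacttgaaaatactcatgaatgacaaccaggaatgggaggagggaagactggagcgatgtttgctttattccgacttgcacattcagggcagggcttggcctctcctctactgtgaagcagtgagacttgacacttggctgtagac
Gm26535, chr10:37319255-37319554: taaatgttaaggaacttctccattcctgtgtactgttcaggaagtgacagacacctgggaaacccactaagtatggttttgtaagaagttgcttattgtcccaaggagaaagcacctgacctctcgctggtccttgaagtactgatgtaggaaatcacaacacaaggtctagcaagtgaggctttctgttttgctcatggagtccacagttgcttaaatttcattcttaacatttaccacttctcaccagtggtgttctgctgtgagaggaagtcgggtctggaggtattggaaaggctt
Gm41865, chr19:54154627-54154926: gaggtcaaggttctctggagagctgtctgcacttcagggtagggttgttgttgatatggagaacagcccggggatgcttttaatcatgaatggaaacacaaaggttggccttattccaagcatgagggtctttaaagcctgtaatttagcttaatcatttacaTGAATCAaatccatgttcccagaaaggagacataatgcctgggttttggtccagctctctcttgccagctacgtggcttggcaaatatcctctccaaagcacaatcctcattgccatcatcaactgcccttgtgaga
8430430B14Rik, chr17:83998302-83998601: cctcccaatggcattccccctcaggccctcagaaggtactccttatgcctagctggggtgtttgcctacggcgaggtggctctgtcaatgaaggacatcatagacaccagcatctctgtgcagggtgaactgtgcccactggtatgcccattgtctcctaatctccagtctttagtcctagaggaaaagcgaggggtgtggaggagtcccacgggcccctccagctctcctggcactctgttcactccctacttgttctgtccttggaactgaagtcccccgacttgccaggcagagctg

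Capitals mark matches, on either strand, to 4 short motifs: TGANTCA of AP-1, ATTGAT of ONECUT, CTTTGA of TCF/LEF and AGATAA of GATA. No match of one overlapped a match of another in these windows. The only match was 1 AP-1 motif in Gm41865, and these motifs are held by 7.81%, 7.54%, 16.0% and 11.2% of 32851 promoter windows of this length, in the order given. Among the 152 promoter windows whose start site lay in a desert region, the shares were 7.89%, 9.21%, 23.0% and 16.4%. A match is a description of letters and not a bound site.

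The region over the start of Gm33782, between Eea1, which encodes an early endosome tether, and Btg1, an antiproliferative gene, had levels of 53.9, 58.6 and 50.2 CPM in RANKL libraries, against 6.76, 9.79 and 7.13 CPM in ENR libraries. CPM is the count in a region per 1000000 reads in regions, scaled by edgeR's TMM factors. All RANKL values lay above all ENR values, a log2 fold of 2.72 ± 0.15 (SE), with an adjusted p of 9.77e-58 in edgeR. At the start of Gm26535, between Rfpl4b and Marcks, whose product binds actin, levels were 32.1, 31.4 and 31.3 CPM in RANKL libraries, against 6.57, 6.60 and 4.31 CPM in ENR libraries. These groups did not overlap either, and the log2 fold was 2.41 ± 0.19 (SE, adjusted p 2.50e-31, edgeR). Gm41865, 104.8 kb from the nearest coding gene and placed between the adrenergic receptor gene Adra2a and Gpam, which encodes an enzyme of triglyceride synthesis, went the other way. It had 7.85, 9.36 and 15.9 CPM in RANKL libraries, against 32.1, 31.2 and 35.8 CPM in ENR libraries, a log2 fold of -1.52 ± 0.17 (SE, adjusted p 3.58e-17, edgeR). The 8430430B14Rik start had 48.6, 41.1 and 49.2 CPM in RANKL libraries, against 100.7, 86.8 and 92.3 CPM in ENR libraries, and its log2 fold was -1.004 ± 0.114 (SE, adjusted p 3.73e-16, edgeR).

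A larger share of the H3K27ac reads lay in deserts after the RANKL protocol. Desert regions took 5.80%, 5.79% and 6.08% of all reads in regions in RANKL libraries, against 4.28%, 4.71% and 4.33% in ENR libraries. Every RANKL library was above every ENR library, and the means were 5.89% ± 0.17 and 4.44% ± 0.23 (SD, n = 3 each), a ratio of 1.33. The difference was 1.45 percentage points, and the exact two-sided permutation test gave p = 0.10, the smallest that 3 against 3 libraries allow. Between libraries of the same number, 1, 2 and 3, the differences were 1.52, 1.09 and 1.75 points. Whether same-numbered libraries of the arms were processed together is not stated. In bulk chromatin, a change in the number of cells that carry the mark and a change in its amount per cell cannot be told apart.

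**Figure D1:**
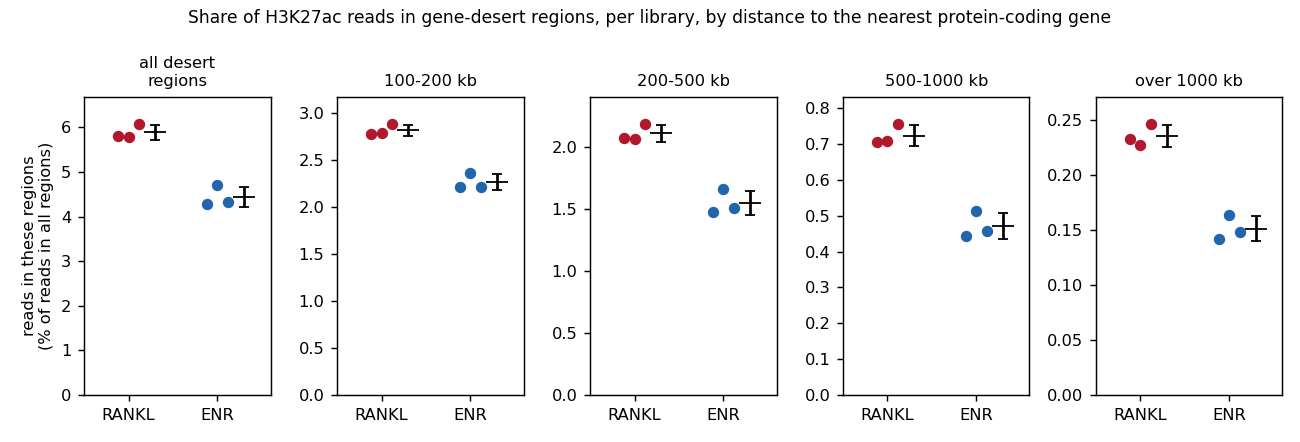
Share of each library's H3K27ac reads in regions that fell in desert regions (percent, linear axes from 0), for all desert regions and by distance to the nearest protein-coding gene. Points are libraries, the bar beside each group is the mean ± SD (n = 3), and every RANKL library lies above every ENR library in all 5 panels, with ratios of the means from 1.24 at 100 to 200 kb to 1.56 beyond 1 Mb.

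The ratio of the shares was higher at greater distance. It was 1.24 for regions 100 to 200 kb from a gene, 1.36 at 200 to 500 kb, 1.54 at 500 kb to 1 Mb and 1.56 beyond 1 Mb. Beyond 1 Mb the 436 regions took 0.235% ± 0.010 of the reads in RANKL libraries and 0.151% ± 0.011 in ENR libraries (SD, n = 3 each). Weak regions outside deserts also took a larger share in RANKL libraries. The 21350 other regions in the lower 5 deciles by level held 12.8% ± 0.5 of the reads in RANKL libraries and 10.4% ± 0.8 in ENR libraries, a ratio of 1.23. For the 6032 desert regions of the same deciles the ratio was 1.44 (3.296% ± 0.146 and 2.287% ± 0.210), and for the 1200 in the upper 5 deciles it was 1.20 (2.58% ± 0.02 and 2.14% ± 0.03). How much of the shift comes from unbound background in the libraries was not tested.

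Desert regions were weak. The median level was 5.29 CPM in RANKL libraries and 3.72 CPM in ENR libraries, where all other regions had medians of 10.9 and 10.2 CPM. Of the desert regions tested, 25.2% fell in the weakest of 10 deciles of all regions by level and 0.75% in the strongest. A median desert region held 15, 18 and 23 reads in RANKL libraries and 19, 37 and 20 reads in ENR libraries, so only large changes can be called in single weak regions. Reads in all regions numbered 2745451 to 3902301 per RANKL library and 5434172 to 9160267 per ENR library. The ENR libraries were thus deeper throughout, and with every library thinned to the shallowest, 1034 of 5653 desert regions tested were higher and 309 lower.

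Of 7232 desert regions that passed the filter on low counts, 1324 were higher (18.3%) and 383 lower (5.30%) in RANKL organoids. Together 23.6% were called. Among all 54765 regions 14.8% were higher and 21.0% lower, together 35.9%. The median log2 fold was 0.40 in deserts, 0.06 over all regions and 0.00 over the rest. Changes of at least 2-fold were called higher in 940 desert regions (13.0%, against 7.53% of all regions) and lower in 129 (1.78%, against 3.88%). The 3 RANKL libraries all lay above the 3 ENR libraries in 2062 desert regions (28.5%, against 20.6% of all regions) and all lay below them in 508 (7.02%, against 24.2%). With the trend of each library's counts on signal level removed, 860 were higher (11.9%), below the 15.6% of all regions. Lower calls then numbered 381 (5.27%, against 15.1%). The median desert log2 fold was then 0.15. The share of lower calls was thus below that of all regions in both fits, and the share of higher calls was above it in one and below it in the other.

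Within deciles of equal level, desert regions were called higher more often than the others in each of the 10 deciles. In decile 1, the weakest, 6.26% of desert regions and 3.42% of other regions were higher. In decile 9 the shares were 38.6% of 132 desert regions and 14.3% of 5344 others, and in decile 10 31.5% of 54 and 10.6% of 5423. Lower calls made up 19.8% of desert and 18.5% of other regions in decile 6, and 33.3% and 54.3% in decile 9. In the upper 5 deciles together, 383 of 1200 desert regions were higher (31.9%) and 319 lower (26.6%), against 17.6% and 39.8% of other regions. With the signal trend removed, the shares in these deciles were 36.6% higher and 20.5% lower for desert regions, against 25.2% and 25.4% for others. In the lower 5 deciles they were then 6.98% and 2.24%, against 5.09% and 5.93%. No test was made of these differences, because neighbouring regions are not independent.

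**Figure D2:**
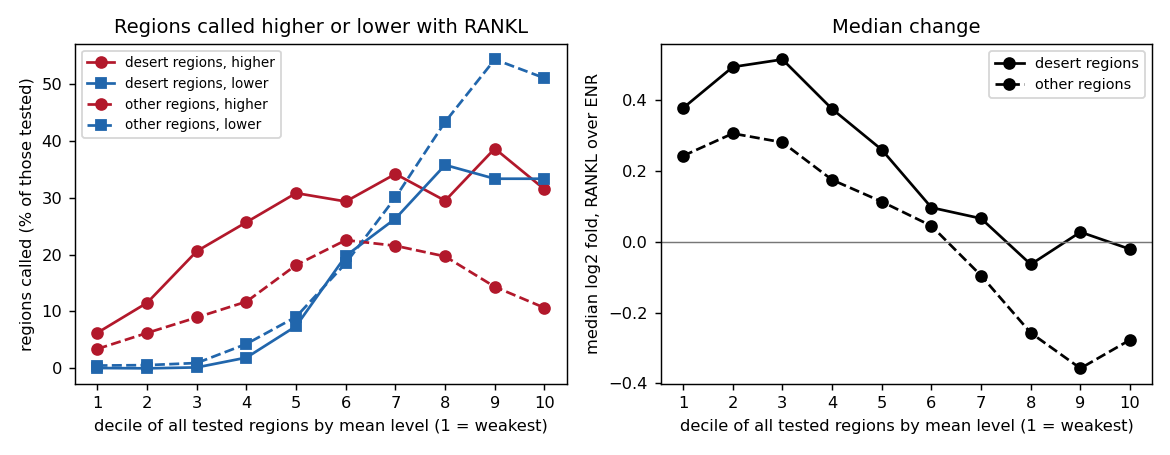
Left, percent of tested regions called higher (red circles) or lower (blue squares) in RANKL organoids, by decile of all tested regions ordered by mean level, for desert regions (solid lines) and all other regions (dashed). Right, the median log2 fold (RANKL over ENR) of both sets in the same deciles, where desert regions have a median of 0.38 in the weakest decile and -0.02 in the strongest, and other regions 0.24 and -0.28.

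Lower calls thinned out with distance from genes. They made up 8.08% of desert regions at 100 to 200 kb, 4.92% at 200 to 500 kb, 1.42% at 500 kb to 1 Mb and 0.69% beyond 1 Mb. Higher calls made up 19.0%, 17.1%, 19.8% and 17.3% in these bins. The median log2 fold was 0.30, 0.41, 0.51 and 0.52, and the median level went down alongside, at 5.34, 4.46, 4.01 and 3.91 CPM. Level and distance therefore move together, and their parts in the change were not tested apart. On either side of the 100 kb border the values were close. Regions 90 to 100 kb from a gene were higher in 16.0% and lower in 10.4% of 489 tested, and regions 100 to 110 kb away in 17.5% and 9.69% of 423. The last region inside, between Fam76b and Sesn3 at 100.005 kb, had a log2 fold of -0.92, and the first outside, between Magi3 and Lrig2 at 99.986 kb, had -0.11.

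**Figure D3:**
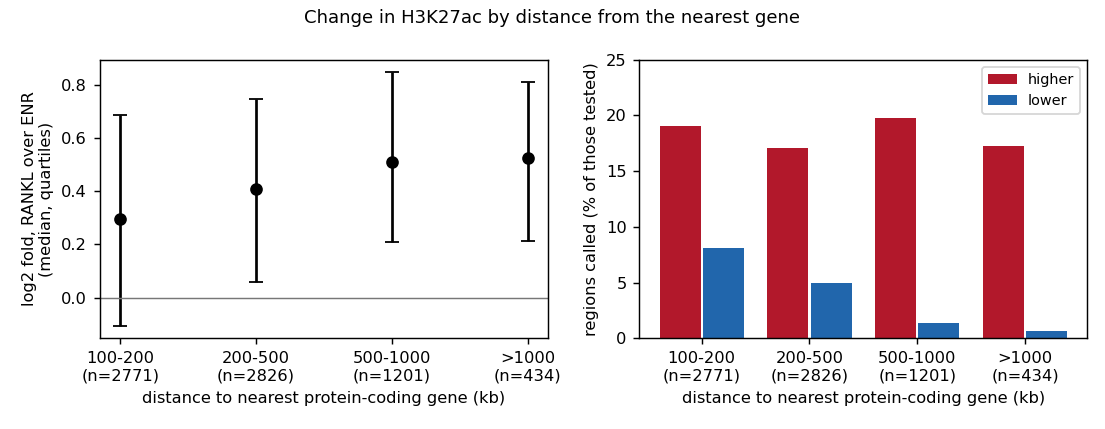
Left, median log2 fold of desert regions (RANKL over ENR, bars from the first to the third quartile) by distance to the nearest protein-coding gene in kb. Right, percent of tested regions called higher or lower, where the lower calls drop from 8.08% at 100 to 200 kb to 0.69% beyond 1 Mb and the higher calls stay between 17.1% and 19.8%.

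The 10 higher regions with the smallest adjusted p were weak in ENR organoids and strong in RANKL organoids. They were picked among regions with a change of at least 2-fold and no overlap between the arms. The lack of overlap therefore follows from the choice. Their means ran from 56.8 to 95.9 CPM in RANKL libraries and from 3.01 to 10.2 CPM in ENR libraries, beside medians over all desert regions of 5.29 CPM in RANKL and 3.72 CPM in ENR libraries. The foremost lay on chromosome 3 (26530546 to 26532546), 197.7 kb from Nlgn1, which encodes the synaptic adhesion protein neuroligin 1, and 105.1 kb from Spata16. It had 103.2, 92.7 and 91.9 CPM in RANKL libraries, against 3.67, 3.85 and 3.56 CPM in ENR libraries. All RANKL values lay far above all ENR values, and the log2 fold was 4.67 ± 0.16 (SE, adjusted p 9.56e-122, edgeR). A listed ONECUT2 site lay inside it.

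Between Fut10, a gene of the fucosyltransferase family, and Nrg1, which encodes the ErbB ligand neuregulin 1, a region on chromosome 8 (31372399 to 31374399) had 63.5, 73.7 and 68.0 CPM in RANKL libraries, against 2.90, 2.75 and 3.38 CPM in ENR libraries (log2 fold 4.52 ± 0.17). It overlapped the non-coding gene 7420700N18Rik. On chromosome 18 (54167313 to 54169313), 211.6 kb from the casein kinase gene Csnk1g3, levels were 88.9, 72.5 and 72.3 CPM in RANKL libraries, against 5.41, 3.301 and 4.69 CPM in ENR libraries (log2 fold 4.17 ± 0.16). As the choice required, neither pair of groups overlapped.

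Klf4 encodes a transcription factor of differentiated gut epithelium. In the desert between Klf4 and Actl7b, 200.0 kb from Klf4 (chromosome 4, 55732449 to 55734449), a region had 55.7, 62.8 and 63.7 CPM in RANKL libraries, against 4.06, 7.04 and 5.06 CPM in ENR libraries. The log2 fold was 3.42 ± 0.16 (SE, adjusted p 3.71e-78, edgeR), and an ONECUT2 site lay inside. The other 6 lay between Pcdh17 and Diaph3 (log2 fold 4.22), Dusp10 and Hlx (3.59), Gm3985 and Wrn (4.25, with an ONECUT2 site), Avpr1a and Ppm1h (3.95), Abca1 and Slc44a1 (3.53), and Agtr1b and Tbl1xr1 (2.88, with an ONECUT2 site). Pcdh17 is a protocadherin, Dusp10 a phosphatase of MAP kinases, Hlx a homeobox factor, Wrn a DNA helicase and Abca1 a cholesterol exporter.

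**Figure D4:**
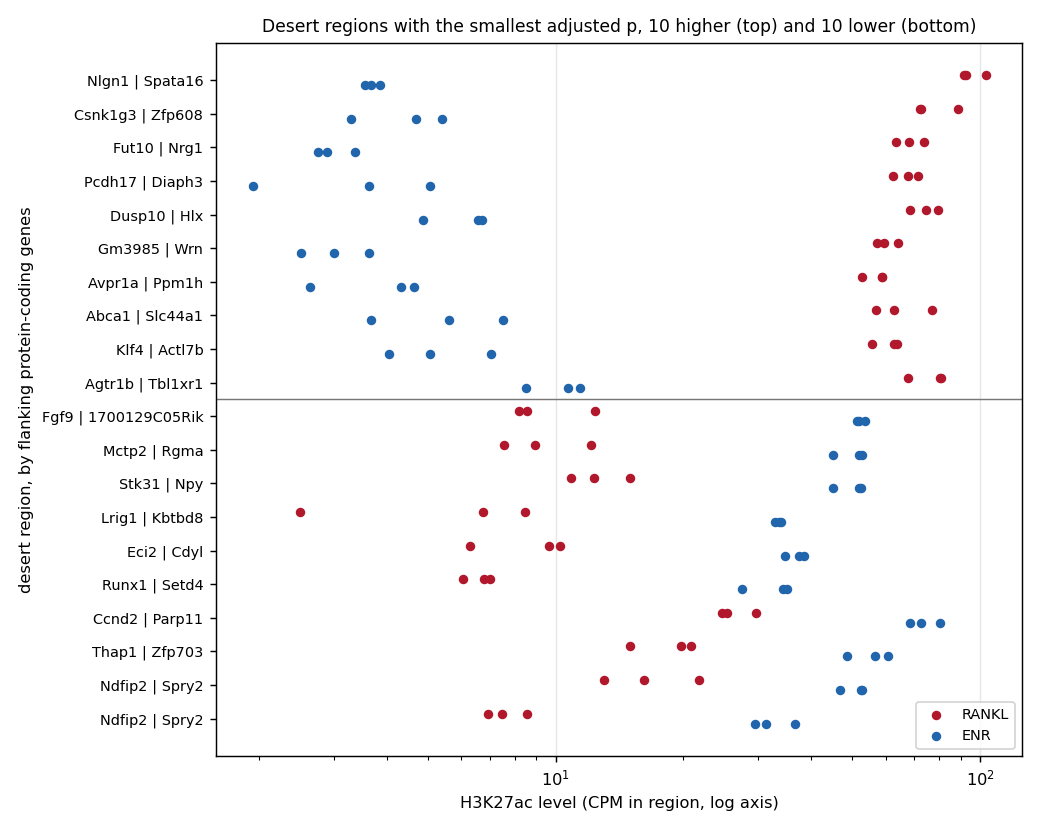
H3K27ac level in CPM (log axis) of the 20 desert regions with the smallest adjusted p and a change of at least 2-fold, 10 higher (above the line) and 10 lower (below it), labelled by the protein-coding genes on either side. Each point is a library, with 3 RANKL (red) above 3 ENR (blue) for each region. Regions were picked only where the groups do not overlap. ENR values of the higher regions stay between 1.93 and 11.4 CPM.

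The 10 foremost lower regions, picked in the same way and so lower by at least 2-fold without overlap, lost most, though not all, of a moderate signal. Of all 383 lower desert regions, 129 were lower by at least 2-fold. Means of the 10 foremost ran from 5.90 to 26.6 CPM in RANKL libraries and from 32.3 to 73.8 CPM in ENR libraries. None of them held an ONECUT2 site, where 11.5% to 13.6% of desert regions in deciles 7 to 10 did. The first lay on chromosome 14 (58479712 to 58481712), 366.9 kb from Fgf9, which encodes a fibroblast growth factor. Its levels were 8.57, 12.4 and 8.20 CPM in RANKL libraries, against 51.8, 51.4 and 53.4 CPM in ENR libraries. The groups were far apart, with a log2 fold of -2.43 ± 0.16 (SE, adjusted p 1.43e-44, edgeR).

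Lrig1 encodes a brake on ErbB signalling and marks intestinal stem cells. In the desert beside it, a region on chromosome 6 (94915037 to 94917037) lay 214.7 kb from Lrig1 and 200.8 kb from Kbtbd8. The region had 2.50, 8.45 and 6.75 CPM in RANKL libraries, against 34.0, 33.7 and 32.8 CPM in ENR libraries (log2 fold -2.45 ± 0.19). RANKL replicate 1 was the lowest, and all 3 were below every ENR library. Another region on chromosome 6 (127334605 to 127336605) lay 110.2 kb from Parp11 and 182.4 kb from Ccnd2. Ccnd2 is the gene of cyclin D2, which drives entry into the cell cycle. The region had 24.6, 25.4 and 29.7 CPM in RANKL libraries, against 72.5, 68.4 and 80.4 CPM in ENR libraries (log2 fold -1.45 ± 0.12). The region 216.0 kb from Runx1, which encodes a Runt-domain transcription factor, had a log2 fold of -2.27, and the others lay between Mctp2 and Rgma (-2.40), Stk31 and Npy (-1.97), Eci2 and Cdyl (-2.10), Thap1 and Zfp703 (-1.56), and Ndfip2 and Spry2 (-1.59 and -2.08). Rgma is a co-receptor of BMP signalling, Npy a neuropeptide and Spry2 an inhibitor of receptor tyrosine kinase signalling. All 20 of these regions stayed past the threshold, in the same direction, with RLE size factors, library size only, the signal trend removed, no filter, DESeq2, the replicate block and each single library left out.

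The few desert regions with the highest mean levels, named next, changed little. In decile 10 as a whole, 17 of 54 desert regions were higher and 18 lower. The region 451.4 kb from Myc, the gene of the growth-promoting transcription factor, on chromosome 15 (61531985 to 61533985) had 98.5, 99.9 and 87.1 CPM in RANKL libraries, against 100.3, 82.8 and 101.5 CPM in ENR libraries. The groups overlapped, and the log2 fold of 0.01 ± 0.11 did not pass (adjusted p 0.963, edgeR); with the signal trend removed it was 0.19 and was called (adjusted p 0.0143). Between Fhl2, a LIM-domain cofactor, and the adaptor gene Nck2, levels were 83.9, 86.9 and 80.3 CPM in RANKL libraries, against 113.2, 103.4 and 125.8 CPM in ENR libraries. This region was lower (log2 fold -0.44 ± 0.11, adjusted p 0.000221, edgeR). Regions between Irf2bp2 and Tomm20 (-0.12), Tnfaip3 and Olig3 (0.08), and Klf14 and Mkln1 (-0.09) were not called. That of Tnfaip3 was called once the trend was removed (0.30, adjusted p 0.000265).

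The 3 regions farthest from genes all lay in the desert between Olfm4, a stem cell marker of the gut, and Pcdh17. The farthest, 2204 kb from Pcdh17, had 11.8, 14.8 and 6.99 CPM in RANKL libraries, against 5.02, 2.53 and 1.50 CPM in ENR libraries, a log2 fold of 1.89 ± 0.33 (SE, adjusted p 1.20e-07, edgeR). The groups did not overlap. The second had a log2 fold of 1.12 ± 0.36 (adjusted p 0.00812; once the signal trend was removed, 0.0556). The third was at about 3 CPM in both arms (3.01 ± 1.603 in RANKL and 3.07 ± 1.730 in ENR libraries, SD, n = 3 each) and was not called.

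Read as whole units, most deserts tested were called higher in the main fit. Counts of all regions between the same pair of coding genes were summed and fitted in one table with the sums of all other regions by nearest gene. Of 1138 deserts tested, 664 were higher (58.3%) and 58 lower (5.10%), where 25.4% of all 16991 summed features were higher and 27.6% lower. The median log2 fold was 0.55 in deserts and -0.02 in the other 15853 features. With the signal trend removed, 570 of 1138 deserts were higher and 60 lower. Without RANKL replicate 3, 566 of 1142 were higher. A sum over a desert pools more reads than a single region, so a shift shared by its weak regions is called more easily. Over single regions, 485 of 1137 deserts held higher calls and no lower ones, 79 held lower and no higher ones, 107 held both, and 466 held neither.

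A gain at nearly every region of a desert was seen between Cdkn2b, the gene of the cyclin-dependent kinase inhibitor p15, and Dmrta1. There 10 of 11 regions within 155.9 kb were higher, with log2 folds of single regions from 0.74 to 1.88. Its sum was 397.6, 362.7 and 403.0 CPM in RANKL libraries, against 161.5, 153.8 and 147.4 CPM in ENR libraries. The log2 fold of the sum was 1.33 ± 0.05 (SE, adjusted p 1.17e-33, edgeR). Other deserts with small adjusted p were those between Nlgn1 and Spata16 (sum 4.13, 2 of 2 regions higher), Gm3985 and Wrn (3.56, 3 of 3), Tmx1 and Frmd6 (2.15, 3 of 6), and Fut10 and Nrg1 (2.46, 4 of 6).

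Loss over most of a desert was seen between Tbc1d1, which encodes a GTPase-activating protein of Rab proteins, and Gm38457. Of 14 regions over 202.6 kb, 12 were lower and none higher, with single log2 folds from -1.67 to 0.23. The sum was 316.7, 310.6 and 342.5 CPM in RANKL libraries, against 493.6, 471.2 and 521.3 CPM in ENR libraries. Its log2 fold was -0.61 ± 0.05 (SE, adjusted p 9.18e-19, edgeR), with no overlap of the groups. Between Haao and Zfp36l2, the gene of an RNA-binding protein that speeds mRNA decay, 7 of 9 regions were lower (sum -0.55). The others in this direction were the deserts of Ccnd2 and Parp11 (5 of 7 lower, sum -0.68), Ndfip2 and Spry2 (4 of 9, -0.87) and Stk31 and Npy (2 of 2, -1.64).

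**Figure D5:**
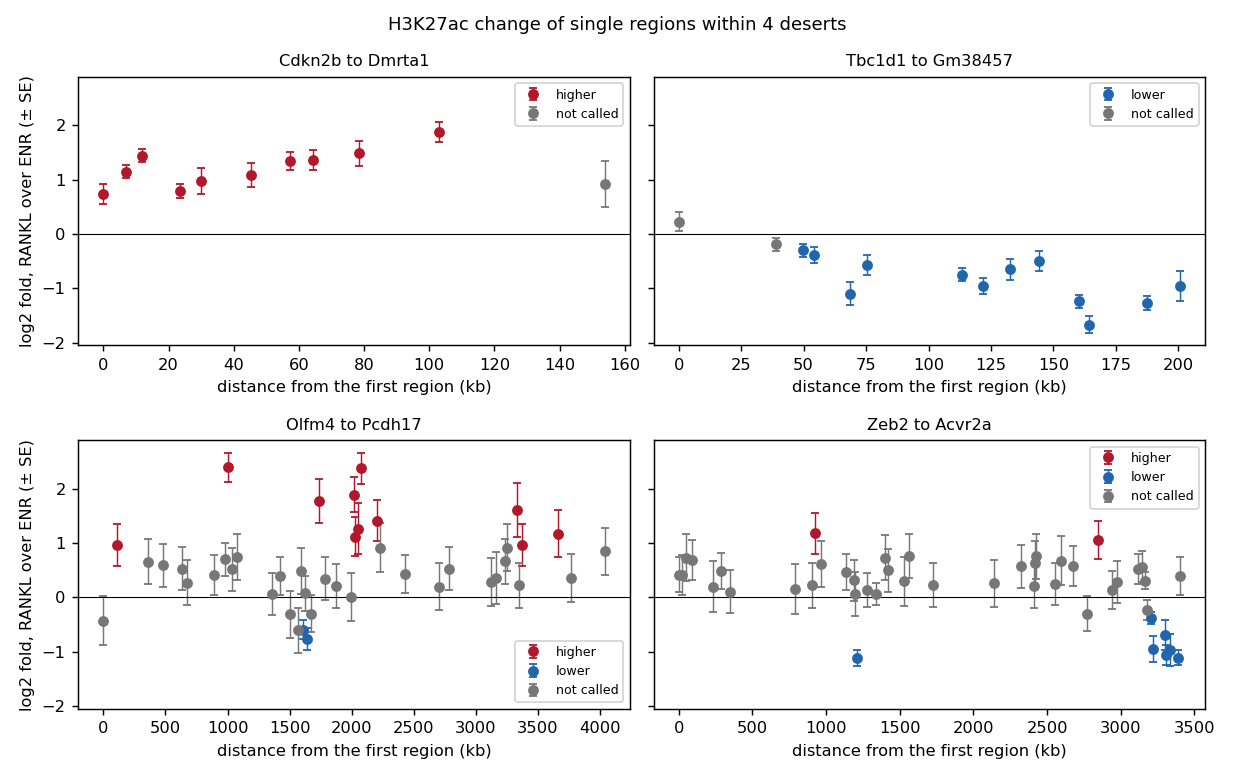
Log2 fold (RANKL over ENR, ± SE) of every tested region in 4 deserts against its distance in kb from the first region of that desert, coloured by call. In the desert from Cdkn2b to Dmrta1 10 of 11 regions are higher, from Tbc1d1 to Gm38457 12 of 14 are lower, from Olfm4 to Pcdh17 11 of 43 are higher and 2 lower, and from Zeb2 to Acvr2a 2 of 45 are higher and 7 lower.

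Of the 5 deserts with the most regions, 4 had a higher sum and 1 was not called. Between Zeb2, a repressor of epithelial identity, and the activin receptor gene Acvr2a, 2 of 45 regions were higher and 7 lower. The sum there had 379.6, 369.6 and 362.5 CPM in RANKL libraries, against 352.8, 384.9 and 378.2 CPM in ENR libraries, with overlapping groups and a log2 fold of -0.01 ± 0.05 (adjusted p 0.892, edgeR; once the trend was removed, -0.12 and 0.0239). Of the 7 lower regions, 1 lay over the start of the non-coding gene Gm13470 (17.5 ± 1.8 CPM in RANKL and 37.5 ± 2.4 CPM in ENR libraries, SD, n = 3 each, log2 fold -1.12). In the desert from Olfm4 to Pcdh17, 11 of 43 tested regions were higher and 2 lower (sum 0.65 ± 0.06). Between Slc10a2, the ileal bile acid transporter, and the ephrin gene Efnb2, 11 of 42 were higher and 1 lower (sum 0.60). Between Nmbr and Cited2, 8 of 44 were higher and none lower (sum 0.34). The desert between Adam6a and Zfp386 on chromosome 12 is the immunoglobulin heavy chain locus, whose V segments the gene table does not class as protein-coding. There 6 of 39 tested regions were higher and none lower (sum 0.91).

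Neighbouring desert regions that were both called mostly changed the same way. For neighbours up to 10 kb apart this held for 137 of 152 such pairs (90.1%), with 80 pairs higher and 57 lower. At 10 to 50 kb it held for 166 of 193 (86.0%) and at 50 to 200 kb for 94 of 104 (90.4%). Outside deserts the shares were 78.8%, 73.6% and 63.6%. Higher calls outnumber lower ones in deserts, which by itself raises the share of equal signs, and the pairs share regions, so no test was made.

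Genes on either side of deserts were grouped in 4 lists that were chosen with earlier results of these data known. Among 93 intestinal and endodermal transcription factors, 48 flanked a desert. Of their 542 tested desert regions 102 were higher (18.8%) and 53 lower (9.78%), where 18.3% and 5.30% of all desert regions and 14.8% and 21.0% of all regions were. The median log2 fold was 0.21, beside 0.40 over desert regions and 0.06 over all regions. Higher calls outnumbered lower ones beside, among others, Klf6 (13 of 32 higher, none lower), Klf5 (9 of 18, none lower), Ahr (7 of 12, none lower), Mycn (7 of 13, none lower) and Gata6 (6 of 11, none lower). Klf5 and Klf6 are Krüppel-like factors, Ahr is the aryl hydrocarbon receptor, and Gata6 is a regulator of gut endoderm.

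The region 162.1 kb from Ahr on chromosome 12 had 26.4, 22.0 and 25.8 CPM in RANKL libraries, against 2.71, 2.64 and 2.81 CPM in ENR libraries (log2 fold 3.18 ± 0.24). The one 247.1 kb from Gata6 on chromosome 18 had 49.3, 50.4 and 40.03 CPM in RANKL libraries, against 6.76, 8.36 and 4.69 CPM in ENR libraries (log2 fold 2.75 ± 0.16). Another, 265.6 kb from Sox6 on chromosome 7, had a log2 fold of 3.00. Lower calls outnumbered higher ones beside Sox9, a factor of crypt progenitors and Paneth cells (6 of 25 lower, 1 higher), and Maf, a factor of maturing villus enterocytes (5 of 23, 1 higher). The same held beside Lef1, a nuclear partner of beta-catenin (3 of 10, none higher), Ets2 (3 of 4, none higher) and Sox5 (3 of 11, none higher), among others. Beside Meis1 4 of 18 were lower and none higher, though the median log2 fold was 0.21. Beside Myc 13 of 44 were higher and 6 lower.

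Of 35 stem cell, Wnt and BMP genes 11 flanked a desert, and of their 136 tested regions 27 were higher (19.9%) and 15 lower (11.03%), median log2 fold 0.27. Over all desert regions these values were 18.3%, 5.30% and 0.40, and over all regions 14.8%, 21.0% and 0.06. Olfm4 alone bordered 44 of the 136 regions, of which 11 were higher and 2 lower. Its desert with Pcdh17 is also counted in the list of nervous system and adhesion genes. Beside Lrig1 6 of 9 were lower and 1 higher, and beside Axin2, a target and inhibitor of Wnt signalling, 3 of 4 were lower and none higher. Beside the BMP ligand gene Bmp2 4 of 22 were higher and none lower. The first of these, 158.8 kb from Bmp2 on chromosome 2, had 67.8, 67.6 and 54.5 CPM in RANKL libraries, against 9.47, 6.82 and 7.31 CPM in ENR libraries (log2 fold 3.03 ± 0.15). Jag1, a Notch ligand, had 7 of 21 higher and 1 lower. The region 545.7 kb from it, over the non-coding gene Gm14064, had a log2 fold of 2.52 ± 0.26.

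Of 42 M cell or RANKL response genes, 6 flanked a desert. Of their 33 tested regions 7 were higher (21.2%) and 8 lower (24.2%), where 18.3% and 5.30% of all desert regions and 14.8% and 21.0% of all regions were; the median log2 fold was 0.16. All 8 lower ones lay in the flank of Jun, a subunit of AP-1, where 8 of 12 were lower and 1 higher. The foremost lay 381.5 kb from Jun but 121.8 kb from Fggy, the gene on its other side. The next lay 391.4 kb from Jun and 111.8 kb from Fggy. The foremost had 22.1, 15.4 and 14.0 CPM in RANKL libraries, against 45.8, 39.6 and 41.3 CPM in ENR libraries (log2 fold -1.32 ± 0.14). Beside Tnfaip3, an inhibitor of NF-kappaB signalling, 2 of 4 were higher, and the one 110.8 kb away had 27.5, 26.3 and 18.1 CPM in RANKL libraries, against 5.80, 5.94 and 8.25 CPM in ENR libraries (log2 fold 1.84 ± 0.21). Both regions beside Tnfrsf11b, which encodes osteoprotegerin, the decoy receptor of RANKL, were higher (log2 folds 1.02 and 0.36). On chromosome X, a region 178.2 kb from Egfl6 and 441.2 kb from Tmsb4x had a log2 fold of 2.57 ± 0.21. Among the 12 regions beside Tmsb4x it was the only one called. Beside Gjb5 1 of 2 was higher, and the 1 region beside Gp2 was not called (log2 fold -0.13).

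Nervous system and adhesion genes were listed as typical of desert flanks. That 50 of 58 flanked a desert therefore follows from the choice and is not a result. They gave 812 tested regions. Of these 163 were higher (20.1%) and 14 lower (1.72%), with a median log2 fold of 0.50 at a median level of 3.95 CPM. All desert regions were higher in 18.3% and lower in 5.30%, and those in the lower 5 deciles by level were lower in 1.06%; over all regions the shares were 14.8% and 21.0%. Most were weak, yet a few reached high levels. A region 959.5 kb from Cntnap5a on chromosome 1 had 45.3, 43.8 and 35.2 CPM in RANKL libraries, against 0.39, 1.98 and 4.31 CPM in ENR libraries (log2 fold 4.21 ± 0.22). Near Cdh9, a cadherin gene, one had 71.0, 65.8 and 57.6 CPM in RANKL libraries, against 11.01, 10.3 and 8.63 CPM in ENR libraries (log2 fold 2.68 ± 0.14). In neither did the groups overlap.

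ONECUT2 is a cut-homeodomain transcription factor, and the authors' deposited table lists 7268 sites that differed between RANKL and ENR organoids. Of desert regions, 281 overlapped a listed site by at least 1 bp (3.85%, exact 95% binomial interval 3.42 to 4.32, which covers counting error only), and of the other 47752 regions 2646 did (5.54%). Within deciles of level, desert regions held a site more often than others from decile 3 up and less often in deciles 1 and 2. The shares were 0.71% of desert and 1.29% of other regions in decile 1, 2.81% and 2.20% in decile 3, 7.74% and 4.61% in decile 5, 13.6% and 7.88% in decile 9 and 13.0% and 9.87% in decile 10. These differences were not tested. Of the listed sites 814 lay in deserts (11.2%), 282 of them inside an acetylated region and 532 outside. In the authors' deposited table the median log2 fold was 2.08 for these sites and 1.84 for all others, and 813 of the 814 were higher with RANKL, as were 7261 of all 7268 listed sites.

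Desert regions with a site were higher in 102 of 281 cases (36.3%) and lower in 27 (9.61%), and those without in 17.6% and 5.12%. Outside deserts 21.2% of 2644 tested regions with a site were higher and 28.1% lower. Regions with a site were also stronger, with a median of 9.17 CPM against 4.44 CPM for desert regions without one. The site with the largest fold in a desert region, by the authors' deposited table, lay on chromosome 1 between Dsel and Cntnap5a (log2 fold 6.33, listed at 0 in ENR organoids). Its H3K27ac region had 13.6, 10.9 and 9.89 CPM in RANKL libraries, against 4.25, 4.07 and 4.50 CPM in ENR libraries (log2 fold 1.41 ± 0.29). The next, between Plekhb2 and Hs6st1 (5.17 in the authors' deposited table), had 27.1, 25.7 and 25.8 CPM in RANKL libraries, against 0.97, 3.85 and 4.69 CPM in ENR libraries (2.99 ± 0.23). A second site beside Cntnap5a, with a fold of 4.78 in the authors' deposited table, lay in a region that just missed the threshold (log2 fold 1.07 ± 0.45, adjusted p 0.0505, edgeR).

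Spans of microRNA genes overlapped 2 desert regions. Mir29a lies on chromosome 6 in the desert between Klf14 and Mkln1, and the hairpin of Mir29b-1 starts just beyond the region. Their RefSeq mature sequences, shown because the pair shares a seed (bases 2 to 8, in capitals), are as follows, with that of the other microRNA.
mmu-miR-29a-3p: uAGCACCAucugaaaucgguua
mmu-miR-29b-3p: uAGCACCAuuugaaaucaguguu
mmu-miR-7214-3p: cUCAGUCCugaccccuugagcgca

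The Mir29a region had 30.7, 25.1 and 24.8 CPM in RANKL libraries, against 22.2, 23.5 and 26.3 CPM in ENR libraries. The groups overlapped and the log2 fold of 0.15 ± 0.15 was not called (adjusted p 0.449, edgeR; with that trend taken out, 0.40 and 0.0274). The Mir7214 region on chromosome 17, between Lemd2 and the glutamate receptor gene Grm4, had 76.8, 76.4 and 75.7 CPM in RANKL libraries, against 63.6, 54.9 and 64.1 CPM in ENR libraries. All RANKL values were above, by a log2 fold of 0.33 ± 0.11 (adjusted p 0.00908, edgeR). H3K27ac does not show which transcript a region serves.

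The strongest regions on non-coding RNA spans went both ways. The one over Gm33323 lay 129.5 kb from Wdr11 and 395.2 kb from the fibroblast growth factor receptor gene Fgfr2. It had 97.5, 102.6 and 99.3 CPM in RANKL libraries, against 42.3, 41.1 and 41.3 CPM in ENR libraries (log2 fold 1.26 ± 0.11). All RANKL values lay above all ENR values. Those over LOC115487086, in the desert of Fhl2 and Nck2 (log2 fold -0.44), and over 8430430B14Rik (-1.004) were lower, and the one over Gm20139, in the desert of Tnfaip3 and Olig3 (0.08), was not called. Over all lncRNA spans, 210 of 1191 tested desert regions were higher (17.6%) and 111 lower (9.32%), where all desert regions gave 18.3% and 5.30% and all regions 14.8% and 21.0%.

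The libraries carried the mark at epithelial genes. All 12 epithelial markers had a region, and the summed level of their top regions was 620 to 655 CPM in RANKL and 679 to 797 CPM in ENR libraries. Single markers ran from Muc2 (means of 3.68 CPM in RANKL and 4.25 CPM in ENR libraries) to Cldn7 (114.7 and 157.3 CPM), and Lyz1 was also weak (6.52 and 8.24 CPM). Krt20, Cdx1 and Chga had higher means in RANKL libraries, and the rest in ENR libraries. Of 6 leukocyte markers 4 had a region (81.0 to 85.4 CPM in RANKL and 97.8 to 108.8 CPM in ENR libraries, mostly at Cd68), and Cd3e had none. Mesenchymal markers summed to 23.6 to 35.7 CPM in RANKL and 31.1 to 40.2 CPM in ENR libraries over 5 of 6 genes, and endothelial markers to 96.2 to 105.3 CPM and 94.9 to 110.3 CPM over 4 of 5, mostly at Tek (49.7 CPM in RANKL and 3.83 CPM in ENR libraries) and Vwf (37.6 and 82.7 CPM). The part of other cell types in the desert changes was not tested.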

How the data were processed

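H3K27ac ChIPmentation was analysed in 3 RANKL and 3 ENR libraries. The authors' deposited table holds raw read counts for 55050 regions of 2000 bp, and a second deposited table headed as normalised, a score, was not used. For ONECUT2 the authors deposited a DiffBind comparison (the tool is named in the submitters' processing notes) with log2 mean levels, a log2 fold change, a p-value and an FDR per site; it holds no values per library, and the input libraries were not analysed here. The build was mm10, per the same notes; the aligner, the caller, the choice of regions and the handling of duplicates were not given in the sources used here. Coordinates are printed as deposited.

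Distances were taken to 21896 protein-coding spans of the RefSeq table of GRCm38.p6, which has no strand; 57 regions off chromosomes 1 to 19 and X were not counted as desert. All regions were fitted with edgeR 4.0.16 (R 4.3.3; TMM, filterByExpr, quasi-likelihood test, Benjamini-Hochberg, threshold 0.05), which left 66 desert regions untested. The SE is the log2 fold divided by the root of the F statistic. Alternatives used DESeq2 1.42.0, library size only, the experiment as a block, other distances, thinned libraries and single libraries left out. To remove the signal trend, limma 3.58.1 fitted a loess of each library's log count on mean level, which edgeR took as an offset. Scripts were tested on simulated data. Regions were named by adjusted p, level, distance, overlap with non-coding genes, flanking-gene list and ONECUT2 fold; the members and lists were chosen with earlier results of these data known. TMM moved the median log2 fold of all regions to 0.06, from 0.15 by library size only. The labels number the experiments 1 to 3 in both arms, but deviations from the arm means of same-numbered libraries correlated at 0.01, -0.03 and -0.01 over all regions. Pairs of libraries of 1 arm differed by more than sampling noise (chi-square per degree of freedom 1.80 to 2.06). A region and a marker that the naming rules select are not reported here.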

Additional observations from a re-analysis of the deposited data

How the results depend on the processing

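With the signal trend removed, 860 desert regions were higher and 381 lower, with a median log2 fold of 0.15; of the original calls 798 higher and 310 lower ones were kept. By library size only the median was 0.49, with 1552 higher and 320 lower. Leaving out 1 library at a time gave 1018 to 1229 higher, 318 to 361 lower and a median of 0.37 to 0.47, with 566 to 655 deserts higher and 51 to 56 lower, and a read share difference of 1.36 to 1.58 points. DESeq2 gave 907 and 306. The experiment as a replicate block gave 1225 and 371 (deserts 651 and 57) and moved no count by more than 1.5 times. Other distances changed the number of members. From 50 kb, 1891 regions were higher and 772 lower (median 0.34), with 960 and 145 deserts and a read share difference of 1.96 points. From 200 kb, 797 and 159 (median 0.45), 407 and 24 deserts, 0.90 points and 3.15% of regions with an ONECUT2 site. By distance to any gene, 313 and 27 (median 0.51), 234 and 6 deserts and 0.35 points. Against a minimum fold of 1.5, 485 were higher and 119 lower. In the upper 5 deciles by level, chosen after seeing the data as was thinning, 383 and 319 were called and the share difference was 0.44 points. Sites with an FDR under 0.001 overlapped 3.19% of desert regions. Of 778 refits of 65 single regions and deserts, 769 kept direction and side of the threshold, 1 lost and 8 gained a call, and none turned. Causes beyond fewer or more members were not tested. A median of 15 to 37 reads per desert region limits single calls.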
